A study of Mus musculus with 12 samples.

Results

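The genes examined were 9 transcription factors of naive pluripotency, Esrrb, Tfcp2l1, Nr5a2, Tbx3, Prdm14, Zfp42, Klf2, Klf4 and Klf5, out of 21887 protein-coding genes. They were taken by name and not by a measured value, but the list was chosen with earlier results of these data known. For each gene, every SOX2 region with its midpoint within 100 kb of the gene span was counted and described; the limit of 100 kb is a working distance and assigns no target. SOX2 binding was mapped by chromatin immunoprecipitation and sequencing (ChIP-seq) in E14, a mouse embryonic stem cell line. The groups were SOX2 ChIP from mitotic cells, input DNA from mitotic cells, SOX2 ChIP from asynchronous cells and input DNA from asynchronous cells, with 3 libraries each. The mitotic cells had been held overnight in nocodazole, which blocks the spindle, and after fixation were sorted by staining for H3S10p, a phosphorylated histone residue that marks condensed chromosomes; asynchronous cells were a growing population. All groups were kept in 10% serum with leukemia inhibitory factor (LIF), 3 μM CHIR99021, which inhibits GSK3, and 0.8 μM PD184352, which inhibits MEK. The deposited lists hold 84 mitotic and 10351 distinct asynchronous regions, each called on its 3 pooled replicates. Counts and widths therefore have no replicate error, read depth is unknown, and no test between conditions was possible. Expression was not measured, so the identity of the cells was not checked against marker genes.

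Naive pluripotency is the state of the preimplantation epiblast, and embryonic stem cells hold it in culture when LIF is supplied and MEK and GSK3 are inhibited. SOX2, together with OCT4, binds enhancers of genes that keep this state, and the naive factors in turn act on one another's genes. LIF acts through STAT3 on Klf4 and Tfcp2l1, and inhibition of GSK3 lifts repression by TCF7L1 from Esrrb and Tfcp2l1. Many transcription factors leave chromatin in part during mitosis, and a factor that stays on some of its sites is said to bookmark them.

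All 9 genes had SOX2 regions nearby in asynchronous cells and none had a mitotic one. Within 100 kb lay 0 mitotic and 29 asynchronous regions, and no region was counted for more than 1 of the genes. Of all protein-coding genes, 1.41% had a mitotic region and 62.4% had an asynchronous region at that distance. At least 2 asynchronous regions lay near 8 of the 9 genes, against 33.7% of all genes, and at least 3 lay near 6 of the 9, against 16.9% of all genes. The median per gene was 3 in the naive factor genes and 1 in all protein-coding genes. These are descriptions, since no test was run on a list chosen with earlier results of these data known.

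**Figure D1:**
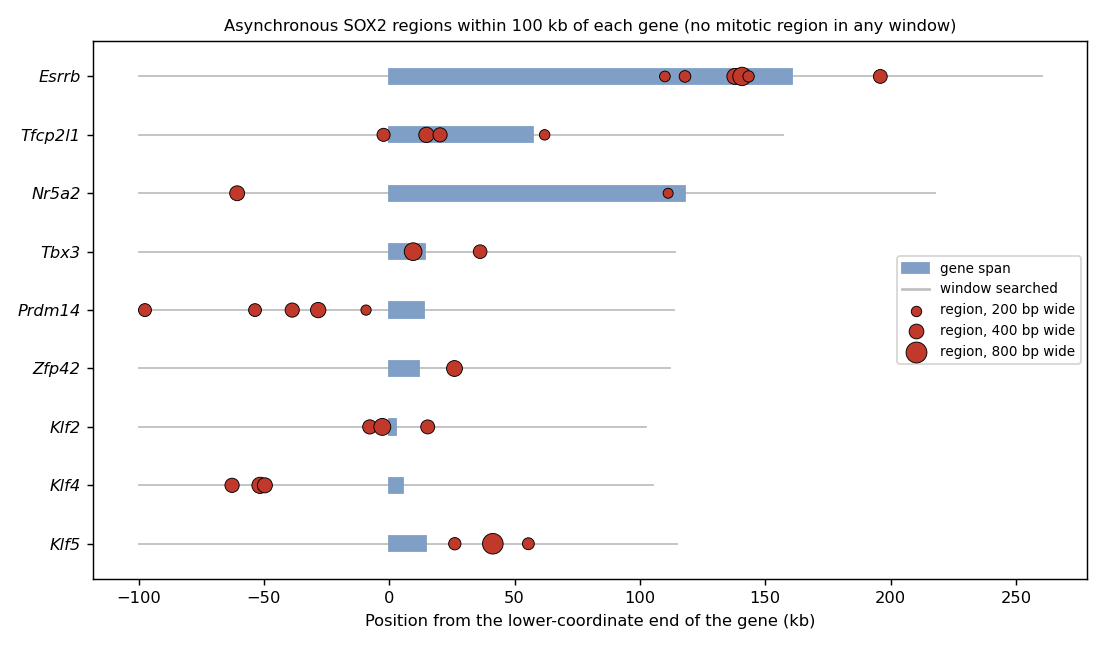
Map of the 9 gene loci, one row per gene, with the position from the lower-coordinate end of the gene in kb on the horizontal axis, blue bars for gene spans, grey lines for the windows searched and red circles for the 29 asynchronous SOX2 regions, larger when wider (legend). Regions lie inside Esrrb, Tfcp2l1, Nr5a2 and Tbx3, and each of these also has a region outside, Tfcp2l1 on both sides. The other genes have regions outside only, on both sides of Klf2 and on a single side of Prdm14, Zfp42, Klf4 and Klf5. No window holds a mitotic region.

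The order by number of asynchronous regions was Esrrb with 6, Prdm14 with 5, Tfcp2l1 with 4, Klf2, Klf4 and Klf5 with 3 each, Nr5a2 and Tbx3 with 2 each, and Zfp42 with 1. At least as many regions as at Esrrb were found near 1.59% of all protein-coding genes, at least as many as at Prdm14 near 3.78% and at least as many as at Tfcp2l1 near 8.02%. Zfp42 was close to the middle of the distribution. Longer genes have longer windows, so the counts were also divided by window length. Prdm14 then came first, with 2.34 regions per 100 kb of window (percentile 98.8 of all protein-coding genes), followed by Esrrb with 1.66 and Tfcp2l1 with 1.55. The genes Klf2, Klf4 and Klf5 had 1.48, 1.46 and 1.40 regions per 100 kb, above percentile 90 in each case. Lower in the order were Tbx3 with 0.934, Nr5a2 with 0.629 and Zfp42 with 0.472. The median was 1.46 per 100 kb for the naive factor genes and 0.445 for all protein-coding genes. Neighbours in this order can differ by a single region, and no error can be put on them.

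**Figure D2:**
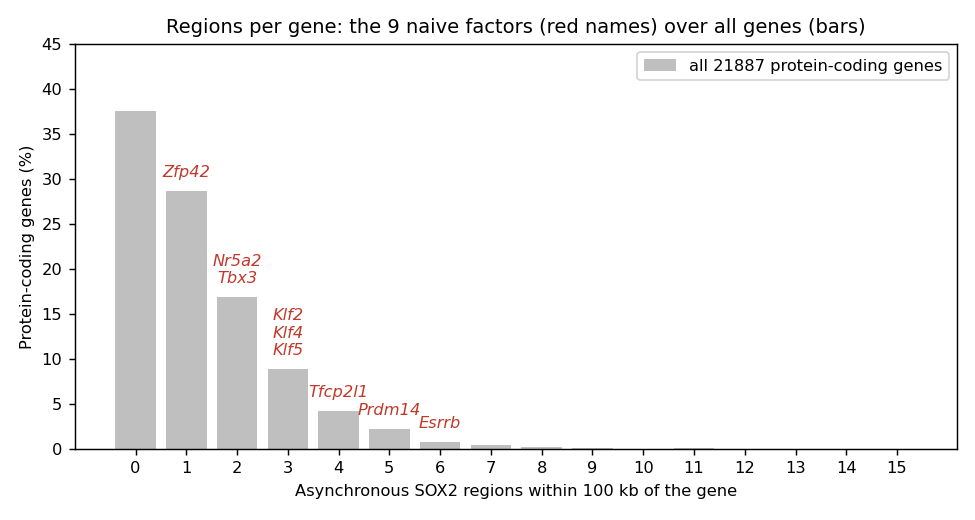
Number of asynchronous SOX2 regions within 100 kb of a gene (horizontal axis) against the percent of the 21887 protein-coding genes with that number (grey bars), with the naive factor genes named in red above their own number. Esrrb, Prdm14 and Tfcp2l1, with 6, 5 and 4 regions, stand over the sparse right part of the distribution, and Zfp42, with 1, stands over one of its tallest bars.

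The nuclear receptor genes Esrrb and Nr5a2 differed in how their regions were arranged. Esrrb, an orphan receptor that can take over functions of NANOG in self-renewal, spans 161 kb at chromosome 12, 86361117 to 86521628. All 5 regions inside it lay toward the 3' end of the span, 110 to 143 kb from its 5' end and at least 68.5% of the way along it. RefSeq also lists an inner Esrrb start at 86421644, and the nearest region midpoint was 49.4 kb from the promoter window of that start. Of these, 3 formed a tight row, at 86498760 to 86499229, 86501535 to 86502157 and 86504356 to 86504592, with midpoints 2.85 and 2.63 kb apart. They were 470, 623 and 237 bp wide, so that the middle one was the widest at this gene (percentile 97.4 of the asynchronous list) and the last was narrower than the list median of 289 bp. The other regions inside Esrrb, at 86470986 to 86471196 and 86478980 to 86479227, were 211 and 248 bp wide. The remaining region, 352 bp wide at 86556847 to 86557198, lay 35.4 kb downstream of the gene.

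Nr5a2, known as LRH-1, is a receptor that acts on Pou5f1 and Nanog and can replace OCT4 in reprogramming; it spans 118 kb at chromosome 1, 136842562 to 136960448. One of its regions lay 60.7 kb downstream of the gene, at 136781682 to 136782089, and was 408 bp wide. The other, at 136953727 to 136953910, lay inside the gene 6.63 kb from the 5' end of the span. It was 184 bp wide (percentile 4.77), among the narrowest of the list, whose smallest width is 183 bp. This narrow region fell on a promoter. RefSeq lists promoter windows (250 bases before to 50 after a start) for a pair of Nr5a2 starts, and 154 bp of the region, 83.7% of it, lay in the window of the inner start, chr1:136953581-136953880 on the minus strand, with its midpoint 189 bases upstream of that start. Windows of the 6 naive factor genes with an entry, Esrrb, Tfcp2l1, Nr5a2, Zfp42, Klf2 and Klf4, numbered 8, and this was the only one that an asynchronous region overlapped; of all 32851 promoter windows of this length, 1.56% were overlapped by at least 1 bp.

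The windows of both Nr5a2 starts are printed because the region separates them: it covers bases 1 to 154 of the inner window and none of the outer one, chr1:136960399-136960698. Sequences are those of RefSeq on GRCm38.p6, on the minus strand from 5' to 3', and capitals mark ACAAAG, letters found in many SOX sites.
Nr5a2 inner start: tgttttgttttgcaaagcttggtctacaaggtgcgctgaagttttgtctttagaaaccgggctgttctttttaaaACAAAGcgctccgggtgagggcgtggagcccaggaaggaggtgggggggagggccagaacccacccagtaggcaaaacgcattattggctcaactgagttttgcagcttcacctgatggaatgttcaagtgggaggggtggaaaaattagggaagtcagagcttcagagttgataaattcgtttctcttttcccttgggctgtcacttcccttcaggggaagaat
Nr5a2 outer start: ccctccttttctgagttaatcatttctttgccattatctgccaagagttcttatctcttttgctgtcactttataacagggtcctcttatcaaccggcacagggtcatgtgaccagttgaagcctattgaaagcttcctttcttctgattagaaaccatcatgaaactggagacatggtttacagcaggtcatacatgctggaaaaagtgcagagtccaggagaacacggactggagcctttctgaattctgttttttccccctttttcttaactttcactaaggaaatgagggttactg
ACAAAG stood at bases 76 to 81 of the inner window, within the stretch covered by the region, and did not occur in the outer one. The letters searched, on both strands, were ACAATG and ACAAAG for SOX factors, ATGCAAAT for the octamer of POU factors and, for a joined SOX and octamer site, TTGT, any base and ATGCAAA, which overlaps most of the octamer. ACAAAG occurs in 18.7% of all windows, so its presence in a single window is a description and not evidence of a site.

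Tfcp2l1, a CP2 family factor downstream of LIF and STAT3, spans 57.2 kb at chromosome 1, 118627923 to 118685168, and its regions lay close to the gene. All 4 lay inside it or within 5 kb of it. The nearest to the 5' end was 2.27 kb upstream, at 118625496 to 118625811, and 316 bp wide. Inside the gene, 14.8 and 20.3 kb from its 5' end, were regions of 431 bp at 118642543 to 118642973 and of 369 bp at 118648015 to 118648383. The narrowest, 202 bp at 118689809 to 118690010, lay 4.74 kb past the 3' end. None overlapped the promoter window of Tfcp2l1.

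Tbx3, a T-box factor that sustains self-renewal and is also needed in limb and heart development, spans 14.2 kb at chromosome 5, 119670534 to 119684724. One region, 575 bp wide (percentile 95.9), lay inside the gene at 119679762 to 119680336, and the other, 342 bp wide, lay 22.1 kb outside its higher-coordinate end at 119706613 to 119706954. Both were wider than the list median, in contrast to Nr5a2, where the region inside the gene was the narrow one.

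Prdm14, which represses FGF signalling and de novo DNA methylation and is required in primordial germ cells, spans 13.7 kb at chromosome 1, 13113428 to 13127163. Its 5 regions were strung out on the lower-coordinate side, and none lay inside the gene or on the other side. Going outward, the first was 9.26 kb from the gene at 13104072 to 13104263 and 192 bp wide, the narrowest of the row, with its midpoint inside Gm39592, annotated as a long noncoding RNA gene. Those 28.3 and 38.7 kb out, at 13084864 to 13085295 and 13074530 to 13074899, were 432 and 370 bp wide. The outer ones, of 303 bp at 13059728 to 13060030 and 308 bp at 13015823 to 13016130, lay 53.5 and 97.5 kb out. The outermost was just inside the limit and was nearer to Slco5a1, an organic anion transporter family gene, 23.2 kb from it. The first region beyond the limit, 122 kb from Prdm14, lay inside Slco5a1.

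Zfp42, known as Rex1, is a zinc finger gene of the YY1 family and a marker of naive cells. It spans 11.9 kb at chromosome 8, 43295067 to 43307009, and had the fewest regions. Its single region, 462 bp wide (percentile 87.3) at 43320673 to 43321134, lay 13.9 kb upstream of the gene, and no other lay within 200 kb. The Zfp42 promoter window, chr8:43306960-43307259 on the minus strand, is printed because it was the only one of the 8 windows with an octamer, although no region overlapped it. Capitals mark the octamer, which reads ATGCAAAT on the opposite strand, at bases 65 to 72.
Zfp42 start: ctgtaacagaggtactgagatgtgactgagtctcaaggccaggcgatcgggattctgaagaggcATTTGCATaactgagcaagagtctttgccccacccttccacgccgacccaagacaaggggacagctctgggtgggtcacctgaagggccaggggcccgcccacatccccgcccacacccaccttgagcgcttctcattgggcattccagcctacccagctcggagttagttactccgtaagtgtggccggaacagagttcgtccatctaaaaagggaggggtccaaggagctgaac
The octamer occurs in 1.74% of all windows. ACAATG was found in 1 of the 8 windows, that of the outer Esrrb start, against 12.6% of all windows, and the joined site in none of the 8, against 0.0365% of all windows. The absence of letters says only that they are not in these 300 bases.

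The KLF genes encode zinc finger factors that share targets in stem cells, and their regions lay in different places. Klf2, a target of MEK signalling at the protein level, is the shortest of the 9 genes, 2.59 kb at chromosome 8, 72319062 to 72321654. It had regions 7.78 and 2.77 kb upstream, at 72311101 to 72311470 (370 bp) and 72316031 to 72316556 (526 bp, percentile 93.2). The region on the other side, 359 bp at 72334228 to 72334586, was 12.8 kb downstream and was nearer to Eps15l1, an endocytic adaptor gene, 6.58 kb from it. Klf2 also had the most crowded window, with 3 other protein-coding genes.

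Klf4, one of the reprogramming factors and a target of STAT3, spans 5.34 kb at chromosome 4, 55527137 to 55532475, and none of its regions lay within 10 kb of the gene. All 3 were downstream, at distances of 49.6, 51.6 and 62.7 kb, and no other protein-coding gene overlapped the window. They lay at 55477308 to 55477723, 55475329 to 55475812 and 55464239 to 55464611, and were 416, 484 and 373 bp wide, all above the list median. The inner pair had midpoints 1.945 kb apart. Only the innermost lay within 50 kb of the gene, so the count for Klf4 depends on the limit chosen.

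Klf5, which supports self-renewal and restrains primitive endoderm, spans 14.7 kb at chromosome 14, 99298691 to 99313412. Its 3 regions stood on the higher-coordinate side, 11.4, 26.6 and 40.8 kb from the gene, at 99324698 to 99324977, 99339626 to 99340404 and 99354060 to 99354319. The middle one, 779 bp (percentile 99.4), was the widest of the 29, and its neighbours, 280 and 260 bp, were narrower than the list median. At 144 and 197 kb on the same side, outside the limit, were further regions whose nearest protein-coding gene was also Klf5.

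Regions of the naive factor genes lay mostly outside genes. Of the 29, 9 (31.0%) had their midpoint inside a protein-coding gene, always the naive factor gene itself. Among the 8887 asynchronous regions within 100 kb of any protein-coding gene, 55.8% lay inside one. The shares come from unlike sets, because the latter includes regions inside genes of every length. Gene length and the number of genes nearby were not adjusted for, and the difference was not tested. An asynchronous region lay inside 4 of the 9 naive factor genes and inside 14.7% of all protein-coding genes. Gene length was not adjusted for here either. Of these 4 genes, Esrrb, Nr5a2 and Tfcp2l1 span 161, 118 and 57.2 kb and Tbx3 14.2 kb, against a median of 17.2 kb for all protein-coding genes. No region touched either end of a naive factor gene, but the share of all protein-coding genes with a touched end is not given here. The 20 regions outside lay 2.27 to 97.5 kb away, with a median of 27.5 kb, and a naive factor gene was the nearest protein-coding gene of 27 of the 29. For the 6 genes whose strand is given by the promoter table, 4 regions were upstream, 8 inside and 7 downstream.

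Their widths were more often above than below the median of the list. Median width was 369 bp over the 29 regions, with quartiles of 280 and 432 bp and extremes of 184 and 779 bp, and 21 (72.4%) were wider than the median of 289 bp of all asynchronous regions. Of the regions within 100 kb of any protein-coding gene, 49.4% were wider than that median. Each of the 9 genes had at least 1 region wider than the median, and the share of all protein-coding genes with one is not given here. Above width percentile 90 of the list were 4 of the 29 (13.8%), those in Esrrb and Tbx3, upstream of Klf2 and beside Klf5. Width does not measure how strongly SOX2 was bound, and the 2 lists were called at different thresholds, so widths were compared only within the asynchronous list.

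**Figure D3:**
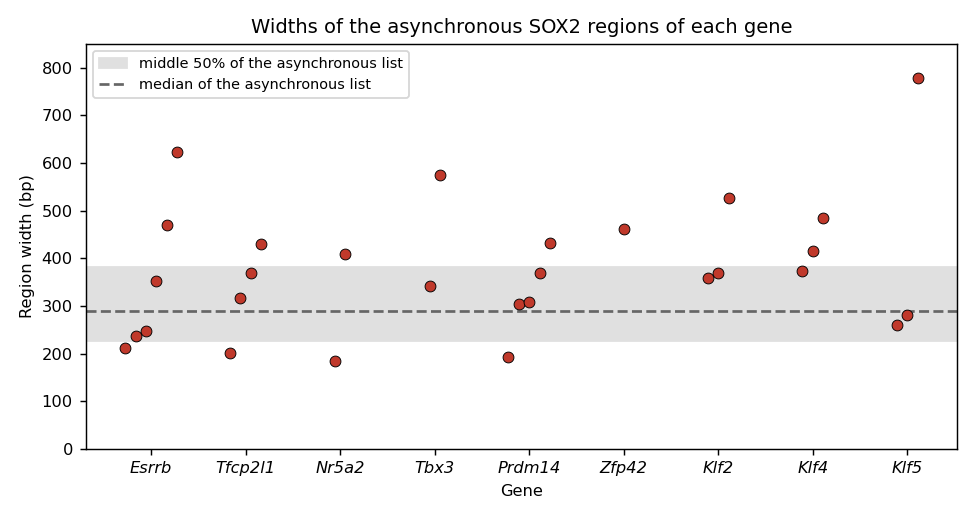
Width in bp of each of the 29 asynchronous SOX2 regions, by gene and in rising order within a gene (red points), with the median of all asynchronous regions (dashed line, 289 bp) and their middle 50% (grey band, 226 to 381 bp). Every gene has a point above the dashed line, and the widest are those beside Klf5 (779 bp), in Esrrb (623 bp) and in Tbx3 (575 bp).

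At shorter limits the share of genes with a region stayed above that of all genes. Within 10 kb, 6 of the 9 had an asynchronous region, against 23.8% of all protein-coding genes, and within 50 kb all 9 did, against 45.5% of all. The genes without a region within 10 kb were Zfp42, Klf4 and Klf5. Set beside the 9 were 53 other genes of the same families (KLF, oestrogen-related and NR5A receptors, CP2 and grainyhead, T-box, PRDM and YY1). Of these relatives, 43 (81.1%) had an asynchronous region within 100 kb, with a median of 2 per gene and 0.641 per 100 kb of window. Within 10 kb, 22 of the 53 relatives did. The sets are not fully separate. The relative Tbx5 was counted only through the region at 119706613 to 119706954, which is also counted for Tbx3. The difference between the naive factors and their relatives was not tested. Of 15 other genes of the pluripotency network, 14 had a region within 100 kb, with a median of 4 per gene. Pou5f1 and Nanog, the core partners of Sox2, had 7 each, more than any of the 9. Etv5, an ETS factor, Gbx2 and Tcf7l1 had 5 each.

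**Figure D4:**
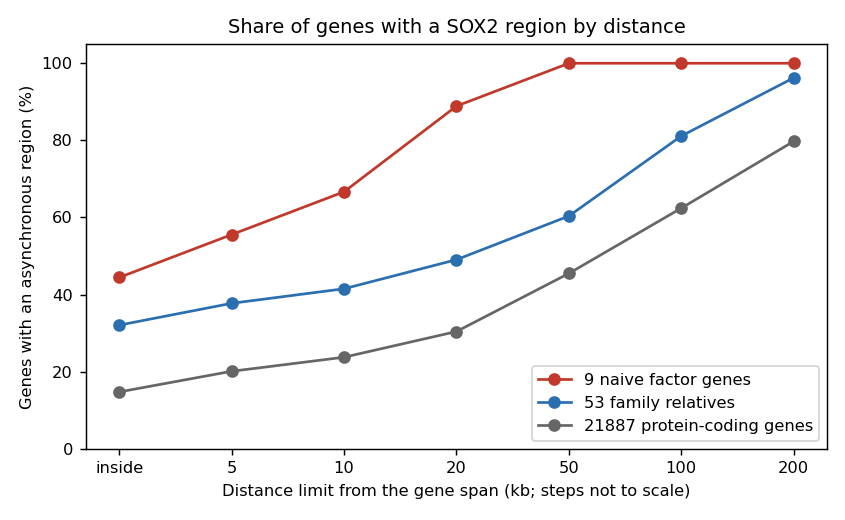
Percent of genes with an asynchronous SOX2 region inside the gene or within a given distance in kb (horizontal axis, steps not to scale), for the 9 naive factor genes (red), their 53 family relatives (blue) and all 21887 protein-coding genes (grey). The red line reaches 100% at 50 kb, where the blue line is at 60.4% and the grey line at 45.5%.

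Extending the windows to 200 kb brought in no mitotic region at any of the 9 genes, whereas 2.43% of all protein-coding genes had one at that distance. The nearest mitotic region was 4667 kb from Tbx3, the closest approach, and 84996 kb from Klf5, the farthest. This absence carries little information. The 29 regions are 0.280% of the asynchronous list, and the same share of 84 mitotic regions would be 0.235 regions. With 0 of 84 mitotic regions near these genes, a share as high as 3.57% remains possible when 3 counts are taken as the floor (the exact 95% bound is 4.30%). Both bounds cover counting error only. They treat the 84 regions, a full list called on pooled replicates, as if these were independent draws. The 9 genes are likewise a fixed list counted in full, not independent draws, and no bound is given for 0 of 9 genes. A loss of SOX2 at these genes in mitosis could thus not be told from the lists. Retention would have shown only as a listed mitotic region, and 0 of the 29 regions overlapped one. The names of the asynchronous peaks are numbered in genome order up to 15590, and 33.6% of the numbers are not in the list. Between the first and last region of each gene, 1 number is missing, at Nr5a2, and 13 further numbers are missing beside the outermost regions, inside or outside the windows. The counts here are thus of listed regions.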

How the data were processed

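Per the labels, 12 libraries of E14 cells fell into 4 groups of 3 replicates. The submitters' processing notes name Bowtie2 (2.2.1), MACS2 without a version, and mm10 as the build. The deposited names say that ChIP was set against input over 3 pooled replicates and that blacklisted regions were removed, and they carry q-value tags read as 0.05 for the mitotic and 0.01 for the asynchronous list. What the authors deposited per region is a position in bp and a name (unit: other), without a score. Starts were converted to count from 1, and 181 asynchronous entries that repeated coordinates were merged.

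Gene spans, and promoter windows with strand, came from RefSeq on GRCm38.p6, the assembly that mm10 names; all 9 genes were matched, 6 with promoter windows. Distances run from a region's midpoint to the gene span (Python 3.11.15, numpy 2.4.6, pandas 2.3.3) and were checked on simulated regions. Width percentiles are within a list. Intervals are exact (Clopper-Pearson, 95%, scipy 1.17.1). The members and gene lists were chosen with earlier results of these data known. Named genes were the 9 members, the nearest genes of their regions, and genes of each comparison list. From each list came the 3 genes with most asynchronous regions, ties taken by symbol, and any with a mitotic region. Gm39592, Tbx5, Gbx2, Tcf7l1 and the genes without a region within 10 kb were picked once their values were known. Alternatives were limits of 10, 50 and 200 kb, region edges, only regions wider than the median, unmerged entries and nearest gene only. Read depth is unknown.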

Additional observations from a re-analysis of the deposited data

How the results depend on the processing

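All values rest on listed regions of pooled replicates, so neither depth nor replicate spread could be varied. No paired analysis was possible because the peaks were called on pooled replicates and the lists carry no values per replicate, and for the same reason no replicate could be left out. Counts of mitotic regions and of genes with a mitotic region were 0 under all 7 alternatives. With the nearest mitotic region 4667 kb away, at Tbx3, none of these alternatives could have changed them. The number of asynchronous regions fell to 14 with a limit of 10 kb, against 29 at 100 kb, and was 24 at 50 kb, 38 at 200 kb, 21 for regions wider than the median and 27 by nearest gene; region edges and unmerged entries gave 29. Genes with an asynchronous region numbered 6 at 10 kb and 9 under every other alternative. For single genes, 49 of 63 recomputed counts were within 1.5 times the count at 100 kb. Those that were not included Klf4, with 1 region at 50 kb and 0 at 10 kb, Prdm14, with 3 at 50 kb and 1 at 10 kb, and Klf5 and Zfp42, with 0 at 10 kb. Nr5a2 and Klf5 had 5 and 6 regions at 200 kb. Among regions wider than the median, Esrrb kept 3 and Klf5 and Nr5a2 1 each.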

Other observations

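Relatives of the naive factors include genes with more regions than the factors themselves. Among PRDM genes, Prdm16, a long gene of brown fat and blood stem cells, had 0 mitotic and 9 asynchronous regions within 100 kb (1.73 per 100 kb of window), Prdm2 had 0 and 8 (2.62 per 100 kb) and Prdm13, a neural factor, had 0 and 4. Among KLF genes, Klf15 had 0 mitotic and 6 asynchronous regions (2.60 per 100 kb), Klf9 had 0 and 5 and Klf6 had 0 and 4. Eomes and T, T-box factors of mesendoderm, had 5 and 4 asynchronous regions and Tbx1 had 3, with no mitotic region near any of them. Nr5a1, the steroidogenic relative of Nr5a2, had 5 asynchronous regions, and Esrra and Esrrg had 2 and 1. Tfcp2 and Grhl1 had 3 and 2, and Yy2 and Yy1 had 4 and 1.

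A mitotic region lay within 100 kb of 2 of the 53 relatives (3.77%), against 1.41% of all protein-coding genes. Grhl2, an epithelial factor of the grainyhead family, had 1 mitotic and 3 asynchronous regions. Klf16 had 1 mitotic and 0 asynchronous regions. These values have no replicate error and were not tested.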
